A study of Mus musculus with 8 samples.

Results

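The genes described here encode proteins that start and carry out DNA replication: 36 genes for origin licensing and firing, the replicative polymerases, the sliding clamp and its loader, the fork and the chromatin behind it, with the MCM helicase genes left out. They were chosen by name, with earlier results of these data known, and all 36 were measured among 19938 named genes. Each gene was represented by its brightest probe set. The RNA came from primary mouse embryonic fibroblasts, cells grown from embryos, of 2 lines, line A (MEF10) and line B (MEF16), and was hybridised to Affymetrix arrays. The 4 groups were line A with tamoxifen, expressing the PKM1 isoform of pyruvate kinase, line A without tamoxifen, expressing PKM2, line B with tamoxifen (PKM1) and line B without (PKM2), with 2 arrays each and 8 in all. The comparison asks how the transcripts differ when fibroblasts that make PKM2, the isoform usual in dividing cells, make PKM1. No group given tamoxifen without the change of isoform was analysed here, so the drug and the isoform cannot be told apart. The labels used here state neither the alleles through which tamoxifen acts nor the strain or embryonic age. They do not state that the arrays of each group stem from different cultures; the p-values therefore rest on the spread of these arrays alone, and that spread may be technical.

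Replication begins when the origin recognition complex, with Cdc6 and Cdt1, loads the MCM helicase onto origins. The kinase Cdc7 with its activator Dbf4, and the factors Ticrr, Cdc45 and the GINS complex, then turn the loaded helicase into a moving fork. Polymerase alpha with primase lays down primers, polymerase epsilon extends the leading strand and polymerase delta the lagging strand, held by the clamp PCNA, which the RFC complex loads. Many of these genes are known targets of E2F transcription factors and are transcribed as cells enter S phase. In such bulk RNA, fewer cells in S phase and less RNA per cell cannot be told apart.

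Values are RMA log2 values, and differences are log2 fold changes, with tamoxifen minus without, unless stated otherwise. The 2 arrays of a group lay closer together in line A than in line B. The mean absolute difference between them over the 36 genes was 0.10 with and 0.16 without tamoxifen in line A, and 0.22 with and 0.22 without in line B. Over all genes it was 0.10, 0.13, 0.20 and 0.19 in the same order. Titles, source and design name fibroblasts, while some label fields name mammary tumor. No probe set was tested for detection and levels of different probe sets cannot be compared, so these values do not check the cell type; the means of the marker lists on each array are set beside each other across arrays only.

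With tamoxifen, 7 of the 36 replication genes fell past the threshold in the fit over both lines: Wdhd1, Pclaf, Ticrr, Pole, Clspn, Uhrf1 and Prim1. They came from 5 of the 6 roles, all but licensing. Their falls ran from 0.49 to 0.72 on the log2 scale, so that each was 28.9% to 39.2% lower with tamoxifen. The other 29 genes did not pass, and 0 rose. Of all genes tested, 0.512% fell and 0.808% rose (1.32% in either direction) past the same threshold, an adjusted p of 0.05 in limma.

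In sign, 35 of the 36 genes were lower with tamoxifen, the exception being Gins4, and 11044 of 19938 genes (55.4%) were lower over the whole array. The median over the 36 was -0.22, and over all genes it was -0.01. In 13 of the 36 the 4 arrays with tamoxifen all lay below the 4 without, where 2.74% of all genes did so, and in 0 they all lay above, against 2.56%. At an unadjusted p of 0.05, 18 of the 36 were lower and 0 higher, against 4.32% and 5.53% of all genes. The count of 7 rested on the line A arrays: it was 1 without either line A array with tamoxifen, where Wdhd1 was the gene still called, 2 (Wdhd1 and Pclaf) without either line A array without tamoxifen, and 7 or 8 without any 1 of the line B arrays. Over all genes 102 fell, and 13 to 104 did when each array was left out, fewest without line A sample 2 with tamoxifen. With array weights 17 of the 36 fell, and 380 of all genes.

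**Figure D1:**
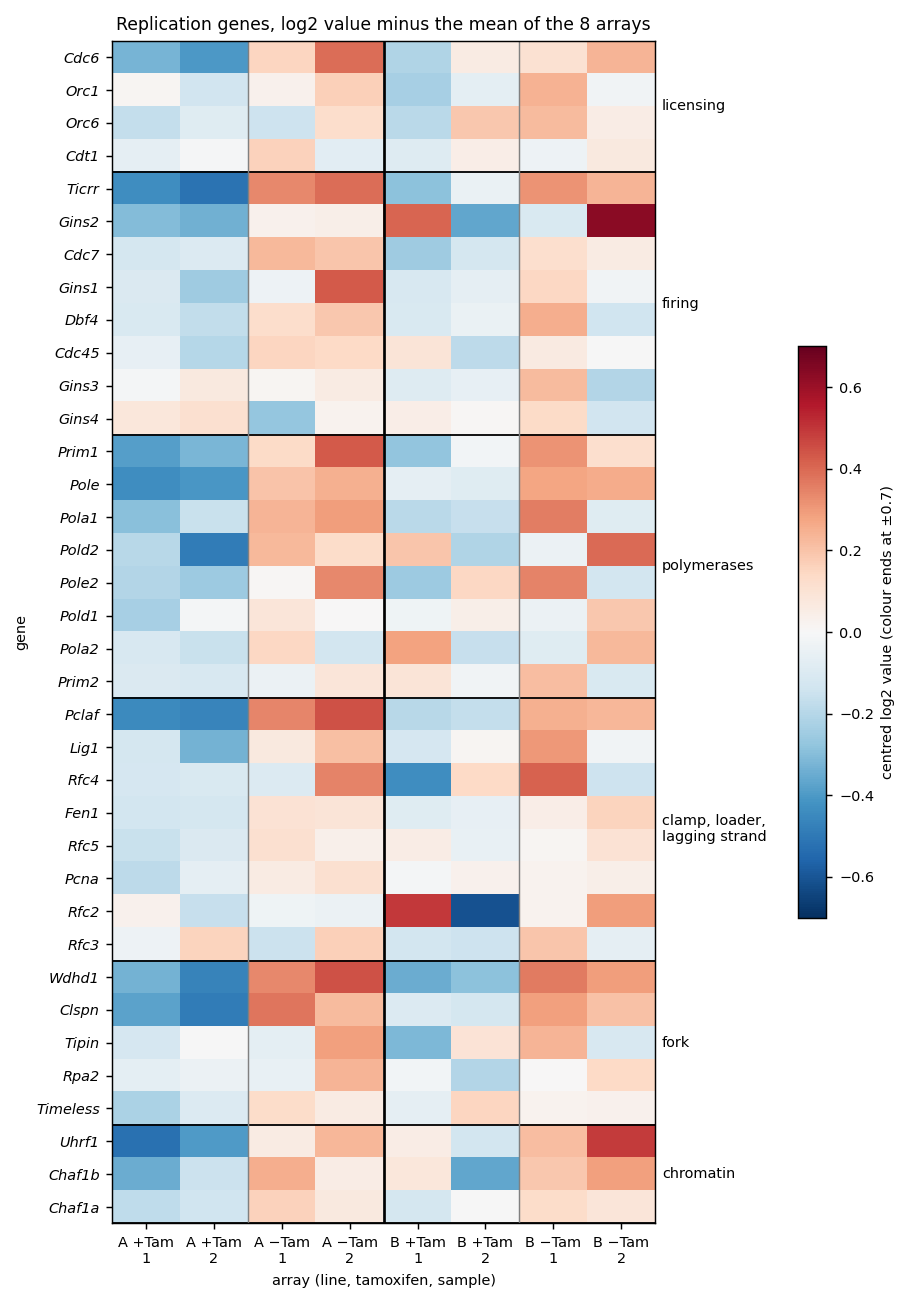
Log2 value of each of the 36 genes on each of the 8 arrays, minus that gene's mean over the arrays; rows are grouped by role and ordered by the change over both lines, and columns give line, tamoxifen (+Tam or −Tam) and sample. Line A with tamoxifen is blue in 33 of 36 rows on each array, while the line B arrays with tamoxifen are mixed, with the reddest cells of those columns in Rfc2 and Gins2 on sample 1.

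The promoters of these genes were searched for letters of the E2F site, since E2F control is a textbook feature of replication genes. RefSeq's promoter table (GRCm38.p6, 250 bases before to 50 after each start) held 35 promoters of 29 of the 36 genes, 5 genes having several. The letters searched were TTTCCCGC, TTTCGCGC, TTTGCCGC and TTTGGCGC on both strands. They were found for 12 of the 29 genes (41.4%), against 704 of 27025 genes in the table (2.6%) and 543 of 15614 genes of the array (3.48%). The 36 genes were chosen by name as replication genes, so this share would be the same without any change with tamoxifen. It does not bear on their falls. The promoters' base composition was not matched, and a match is a description, not a binding site. Of the 6 genes with a promoter entry that fell past the threshold over both lines, 3 held the letters (Pclaf, Clspn and Uhrf1), and of the 23 that did not pass, 9 did. The stretches below are those of the 7 genes whose match begins before the start, shown so that its place and orientation can be compared; each is 60 bases, reads toward the gene 5′ to 3′ and ends with the match, in capitals, so that a match on the opposite strand appears as its reverse complement.
Orc1: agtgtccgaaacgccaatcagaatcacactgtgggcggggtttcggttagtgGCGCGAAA
Cdc6: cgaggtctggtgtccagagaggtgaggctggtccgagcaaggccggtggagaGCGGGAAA
Gins3: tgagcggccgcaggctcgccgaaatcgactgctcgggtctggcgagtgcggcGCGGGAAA
Pola1: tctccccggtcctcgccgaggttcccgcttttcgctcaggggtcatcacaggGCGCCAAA
Pclaf: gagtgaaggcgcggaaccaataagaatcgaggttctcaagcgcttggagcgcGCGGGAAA
Rfc3: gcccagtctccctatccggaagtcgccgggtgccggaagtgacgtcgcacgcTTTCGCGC
Uhrf1: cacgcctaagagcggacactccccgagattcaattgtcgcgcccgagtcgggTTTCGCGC

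They lie at chr4:108579375-108579434 (plus strand) for Orc1, chr11:98907961-98908020 (plus strand) for Cdc6, chr8:95633466-95633525 (plus strand) for Gins3, chrX:93632286-93632345 (minus strand) for Pola1, chr9:65890266-65890325 (plus strand) for Pclaf, chr5:151651211-151651270 (minus strand) for Rfc3 and chr17:56304076-56304135 (plus strand) for Uhrf1. The matches in Cdt1, Clspn, Lig1, Pold1 and Pole2, and another in Rfc3, begin in the first 50 transcribed bases and are not printed. By role, the letters were found for 3 of 4 licensing genes, 1 of 5 firing genes, 3 of 6 polymerase genes, 3 of 7 clamp and lagging-strand genes, 1 of 4 fork genes and 1 of 3 chromatin genes. The CCAAT box (CCAAT, both strands) was found for 15 of the 29 genes (51.7%), against 41.1% of genes in the table, and the cell cycle homology region (TTTGAA, both strands) for 6 (20.7%), against 20.2%. CCAAT was found for 5 of the 6 genes that passed over both lines and for 10 of the 23 that did not. TTTGAA was found for 0 of those 6 and for 6 of those 23, and no such difference was tested for any motif. By role, TTTGAA was found for 4 of the 5 firing genes and 0 of the 4 licensing genes. None of the E2F spellings contains CCAAT or TTTGAA.

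Ticrr, which fell as far as Pclaf in line A, had none of the E2F spellings in its window but 4 CCAAT boxes, of which 2 lie in the 120 bases before its start, and Wdhd1, with the largest fall over both lines, had none of the 3 motifs. These stretches are printed to show that contrast, with CCAAT in capitals, at chr7:79660076-79660195 (plus strand) for Ticrr and chr14:47276858-47276977 (minus strand) for Wdhd1.
Ticrr: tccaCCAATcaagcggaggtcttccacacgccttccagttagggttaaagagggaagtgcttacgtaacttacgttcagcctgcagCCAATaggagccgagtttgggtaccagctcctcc
Wdhd1: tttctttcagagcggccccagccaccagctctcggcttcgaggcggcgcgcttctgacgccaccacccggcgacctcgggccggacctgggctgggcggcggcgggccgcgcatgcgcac

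Among the 4 licensing genes, 0 passed, and their median change was -0.17. Cdc6 stood at 6.83 and 6.75 with tamoxifen in line A, against 7.30 and 7.55 without, and at 6.94 and 7.21 with tamoxifen in line B, against 7.26 and 7.39 without. Cdc6, the ATPase that joins the origin recognition complex to load the helicase, thus had all 4 tamoxifen arrays below the 4 others, by as little as 0.05, and a log2 fold change of -0.44 (SE 0.10, limma adjusted p = 0.083). In line A, Orc1 had values of 7.68 and 7.53 with tamoxifen and 7.69 and 7.83 without, and in line B 7.43 and 7.59 with and 7.91 and 7.64 without. For Orc1, the ATPase subunit of the origin recognition complex, the arrays with and without tamoxifen overlapped between the lines but not within either, and the change was -0.21 (SE 0.08, limma adjusted p = 0.4). The log2 values of Orc6 with tamoxifen were 10.12 and 10.21 in line A and 10.10 and 10.48 in line B, against 10.14 and 10.41 in line A and 10.51 and 10.34 in line B without it. The Orc6 groups overlapped in both lines, with a change of -0.12 (SE 0.10, limma adjusted p = 0.77). Cdt1, the loader that geminin restrains, ran from 7.17 to 7.31 with and 7.19 to 7.42 without tamoxifen, and had a log2 difference of -0.06 (95% interval -0.22 to 0.11).

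Of the 8 firing genes 1 fell, Ticrr, which carries the CDK signal that recruits Cdc45 to loaded helicases. In line A, Ticrr had values of 7.44 and 7.35 with tamoxifen and 8.21 and 8.26 without, and in line B 7.58 and 7.83 with and 8.18 and 8.11 without. The groups were 0.28 apart at their nearest arrays, and the change was -0.64 (SE 0.10, limma adjusted p = 0.01), or 35.9% lower. Cdc7 stood at 6.72 and 6.74 with tamoxifen in line A, against 7.06 and 7.03 without, and at 6.59 and 6.71 with tamoxifen in line B, against 6.95 and 6.89 without. Cdc7, the kinase that phosphorylates the loaded helicase, did not overlap between treatments in either line, and its change of -0.29 (SE 0.06, limma adjusted p = 0.054) just missed the threshold. Its activator Dbf4 had a log2 difference of -0.21 (95% interval -0.41 to -0.01), with the line B groups overlapping. Cdc45, the helicase cofactor, had a log2 difference of -0.18 (95% interval -0.36 to 0.01).

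Of the 4 GINS subunits, which form 1 complex with Cdc45 and the helicase, 0 passed, and differences among them were not tested. The log2 values of Gins1 with tamoxifen were 7.12 and 6.98 in line A and 7.11 and 7.16 in line B, against 7.19 and 7.65 in line A and 7.37 and 7.20 in line B without it. Gins1 was lower in each line, with its nearest arrays 0.03 apart, and had a log2 difference of -0.26 (SE 0.11, limma adjusted p = 0.42). Gins2 had a log2 difference of -0.30 (95% interval -0.69 to 0.09), and in line B it read 9.47 and 8.70 with tamoxifen and 8.96 and 9.69 without. Gins3 had a log2 difference of -0.04 (95% interval -0.24 to 0.16), close to 0. Gins4 was the 1 member higher in both lines, at 10.09 and 10.12 with tamoxifen against 9.73 and 10.03 without in line A and 10.05 and 10.01 against 10.14 and 9.87 in line B, and its change of 0.12 (95% interval -0.08 to 0.33) did not pass.

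Of the 8 polymerase and primase genes 2 fell, Pole and Prim1, and the median of the 8 was -0.32. Pole stood at 7.35 and 7.37 with tamoxifen in line A, against 7.98 and 8.03 without, and at 7.72 and 7.70 with tamoxifen in line B, against 8.05 and 8.04 without. Pole, the catalytic subunit of the leading-strand polymerase, differed by at most 0.05 between the 2 arrays of any group, and its log2 fold change was -0.49 (SE 0.08, limma adjusted p = 0.012). In line A, Prim1 had values of 9.42 and 9.49 with tamoxifen and 9.94 and 10.24 without, and in line B 9.53 and 9.79 with and 10.12 and 9.93 without. Prim1, the catalytic subunit of primase, fell by 0.50 (SE 0.10, limma adjusted p = 0.04), a call kept under 10 of 17 alternatives. The log2 values of Pola1 with tamoxifen were 8.35 and 8.49 in line A and 8.45 and 8.48 in line B, against 8.88 and 8.93 in line A and 9.00 and 8.56 in line B without it. Pola1, the catalytic subunit of polymerase alpha, had every tamoxifen array below every other one and a change of -0.40 (SE 0.10, limma adjusted p = 0.099), which did not pass.

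Subunits of each polymerase are given together, with no test of differences between them. In the polymerase alpha and primase complex, Pola1 and Prim1 had log2 differences of -0.40 and -0.50, and the accessory subunits Pola2 and Prim2 of -0.08 (95% interval -0.33 to 0.17) and -0.08 (95% interval -0.26 to 0.11). Pole2, the second subunit of polymerase epsilon, had a log2 difference of -0.28 (95% interval -0.57 to 0.00), with line B arrays that overlapped. In polymerase delta the change was -0.12 (95% interval -0.29 to 0.06) for the catalytic subunit Pold1 and -0.35 (95% interval -0.64 to -0.06) for Pold2, whose 2 line B arrays with tamoxifen were 0.40 apart.

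**Figure D2:**
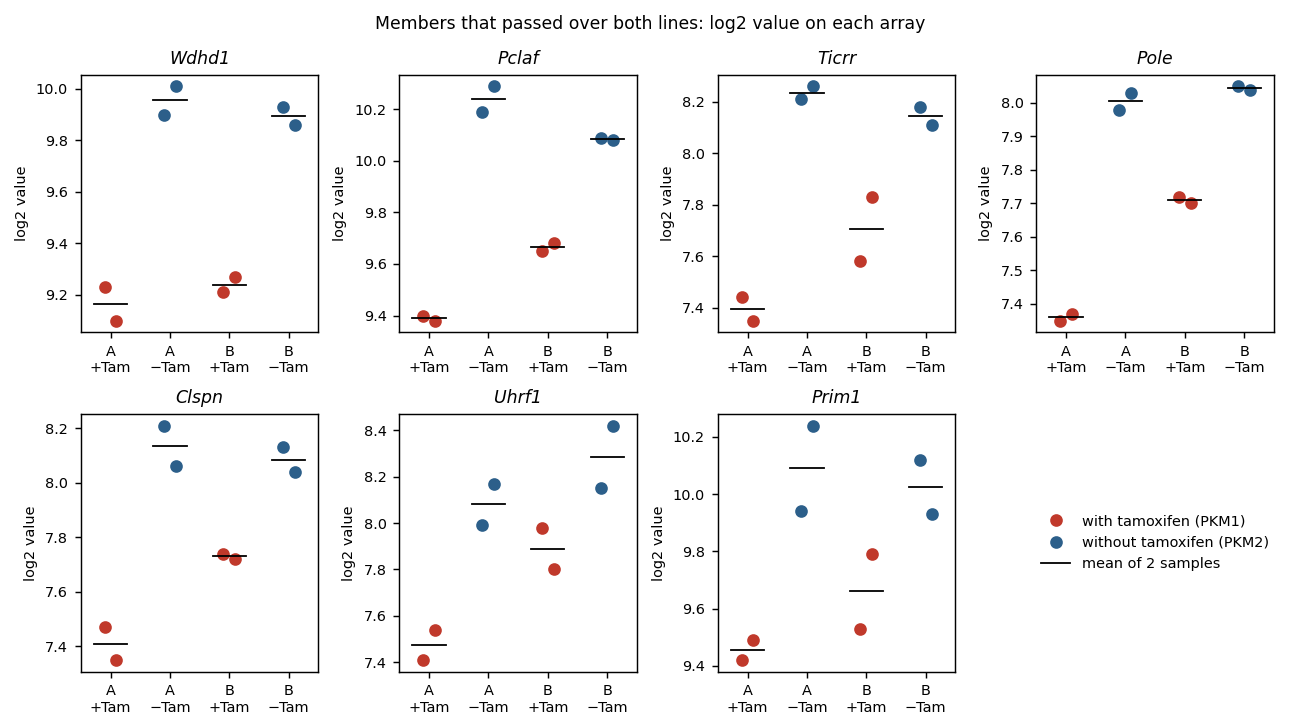
Log2 value on each array (points) and mean of the 2 samples of a group (lines) for the 7 genes that fell past the threshold over both lines, with tamoxifen left of without in each line; the vertical axes differ between panels and do not start at 0. In each panel the 4 red points lie below the 4 blue ones, by 0.58 for Wdhd1 and by 0.01 for Uhrf1, and for 6 of the 7 genes the line B red points lie above the line A ones on average by 0.20 or more.

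Among the 8 clamp, clamp loader and lagging-strand genes 1 fell, Pclaf, a small protein that binds PCNA at forks. The log2 values of Pclaf with tamoxifen were 9.40 and 9.38 in line A and 9.65 and 9.68 in line B, against 10.19 and 10.29 in line A and 10.09 and 10.08 in line B without it. All 4 arrays with tamoxifen lay below the other 4, by 0.40 at the nearest, and the log2 fold change was -0.63 (SE 0.09, limma adjusted p = 0.0089), or 35.4% lower. Another Pclaf probe set gave -0.67 (SE 0.10, limma adjusted p = 0.012 over all named probe sets). Pcna, the clamp that Pclaf binds, had a log2 difference of only -0.12 (95% interval -0.27 to 0.03). It stood at 11.65 and 11.77 with tamoxifen against 11.89 and 11.94 without in line A, and at 11.82 and 11.86 against 11.86 and 11.87 in line B. Both probe sets of Pcna held the same values on all 8 arrays (largest difference 0), so they are not independent, and whether they also match a near-identical copy of the gene was not analysed here.

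Fen1 stood at 7.20 and 7.20 with tamoxifen in line A, against 7.43 and 7.42 without, and at 7.24 and 7.27 with tamoxifen in line B, against 7.37 and 7.48 without. Fen1, the nuclease that trims the RNA flap of Okazaki fragments, thus separated the treatments by 0.10, with a change of -0.20 (SE 0.06, limma adjusted p = 0.24). In line A, Lig1 had values of 7.82 and 7.61 with tamoxifen and 8.01 and 8.16 without, and in line B 7.83 and 7.96 with and 8.25 and 7.92 without. Lig1, the ligase that joins those fragments, overlapped in line B and had a log2 difference of -0.28 (SE 0.09, limma adjusted p = 0.29). The 4 small subunits of the clamp loader did not pass, with log2 differences of -0.26 (95% interval -0.60 to 0.08) for Rfc4, -0.13 (95% interval -0.28 to 0.02) for Rfc5, -0.12 (95% interval -0.54 to 0.30) for Rfc2 and -0.08 (95% interval -0.30 to 0.14) for Rfc3. Rfc2 had the widest interval of the 36 genes, and its 2 line B arrays with tamoxifen read 8.69 and 7.59.

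Both genes that fell among the 5 fork genes had falls above 0.5 on the log2 scale. The log2 values of Wdhd1 with tamoxifen were 9.23 and 9.10 in line A and 9.21 and 9.27 in line B, against 9.90 and 10.01 in line A and 9.93 and 9.86 in line B without it. Wdhd1, which links the helicase to polymerase alpha, was the gene with the largest fall of the 36, -0.72 (SE 0.07, limma adjusted p = 0.0012), 39.2% lower, and was called under 17 of 17 alternatives of the fit over both lines. Clspn stood at 7.47 and 7.35 with tamoxifen in line A, against 8.21 and 8.06 without, and at 7.74 and 7.72 with tamoxifen in line B, against 8.13 and 8.04 without. Clspn, encoding claspin, which ties the fork to the ATR checkpoint and sustains fork speed, fell by 0.54 (SE 0.09, limma adjusted p = 0.017).

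The other 3 fork genes did not pass. In line A, Rpa2 had values of 7.58 and 7.61 with tamoxifen and 7.60 and 7.88 without, and in line B 7.63 and 7.44 with and 7.65 and 7.79 without. Rpa2, a subunit of the protein that coats single-stranded DNA, overlapped in line A and had a log2 difference of -0.16 (SE 0.08, limma adjusted p = 0.57). Timeless and Tipin, partners in the fork protection complex that works with claspin, had log2 differences of -0.12 (95% interval -0.30 to 0.07) and -0.17 (95% interval -0.43 to 0.09). The treatments overlapped in line B for both genes, and in line A for Tipin as well.

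The 3 chromatin genes were all lower, with a median of -0.39, and Uhrf1 fell. Uhrf1 stood at 7.41 and 7.54 with tamoxifen in line A, against 7.99 and 8.17 without, and at 7.98 and 7.80 with tamoxifen in line B, against 8.15 and 8.42 without. For Uhrf1, which reads hemimethylated DNA behind the fork and recruits the maintenance methyltransferase, the treatments were separated within each line, but the lower of the line A arrays without tamoxifen was only 0.01 above the higher line B array with it; the change was -0.50 (SE 0.09, limma adjusted p = 0.028), or 29.3% lower. In line A, Chaf1b had values of 7.24 and 7.44 with tamoxifen and 7.85 and 7.64 without, and in line B 7.67 and 7.23 with and 7.78 and 7.88 without. The log2 values of Chaf1a with tamoxifen were 7.61 and 7.64 in line A and 7.66 and 7.78 in line B, against 7.95 and 7.85 in line A and 7.92 and 7.87 in line B without it. These encode the middle and the large subunit of chromatin assembly factor 1, which places histones on new DNA, and neither passed, at -0.39 (SE 0.10, limma adjusted p = 0.13) for Chaf1b and -0.22 (SE 0.07, limma adjusted p = 0.2) for Chaf1a. The Chaf1b treatments did not overlap within either line, and those of Chaf1a did not overlap at all.

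**Figure D3:**
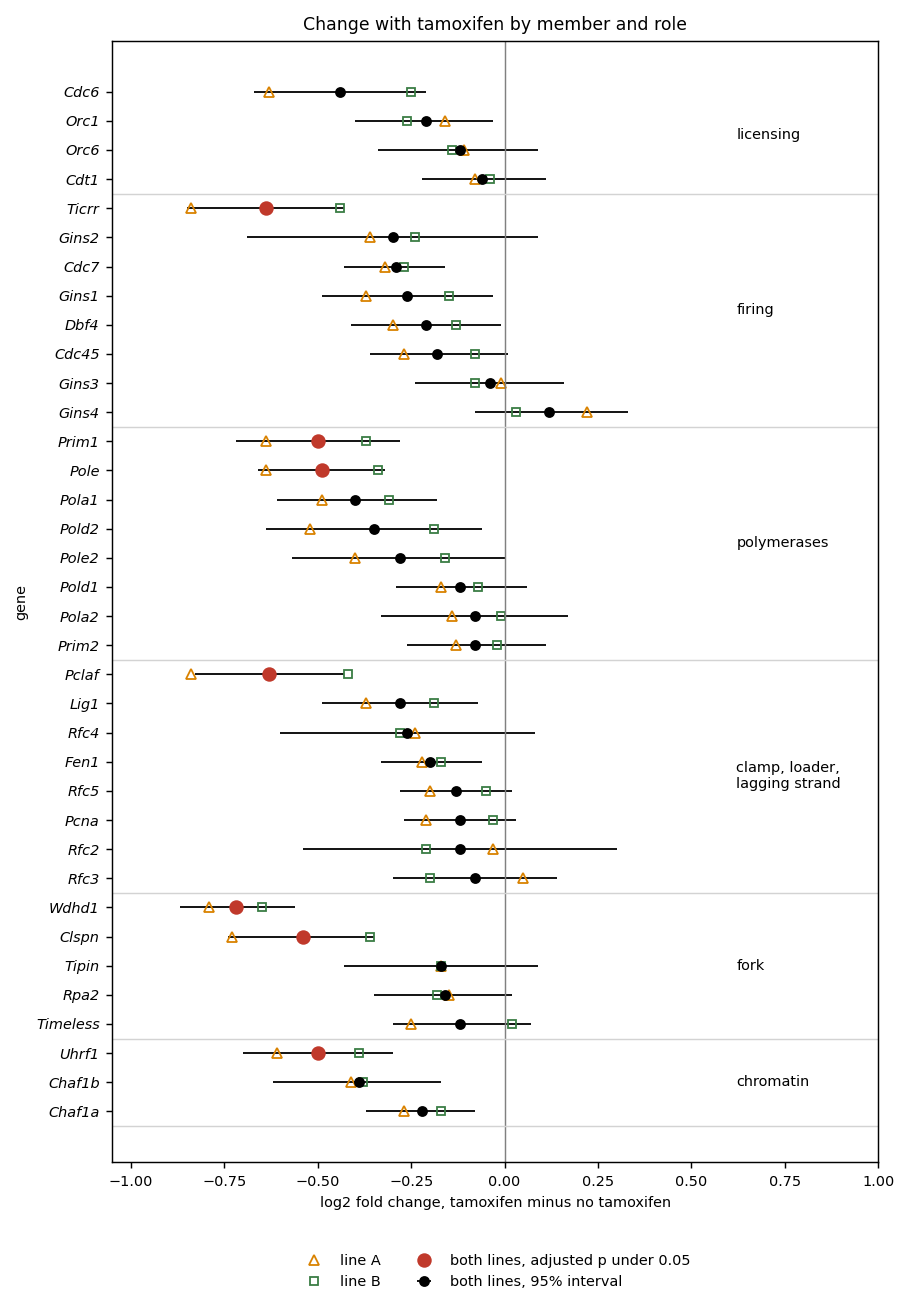
Log2 fold change with tamoxifen for each of the 36 genes, grouped by role: circles give the fit over both lines with its 95% interval (red where the adjusted p was under 0.05), triangles line A and squares line B. All but Gins4 lie left of 0 in the fit over both lines, and in 27 of the 36 genes the line A symbol lies left of the line B symbol, as it would for 10187 of all 19938 genes.

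Taken by role, the mean level on each array separated the treatments in every role but licensing. Centred on the 8 arrays, the polymerase genes averaged -0.24 and -0.24 in line A with tamoxifen and -0.03 and -0.06 in line B with tamoxifen, against 0.12 and 0.17 in line A and 0.17 and 0.11 in line B without. The chromatin genes ranged more widely, at -0.35 and -0.23 in line A and 0.00 and -0.17 in line B with tamoxifen, against 0.16 and 0.12 in line A and 0.18 and 0.29 in line B without. For the licensing genes the line B arrays with tamoxifen were at -0.18 and 0.06, so that 1 of them lay within the range of the arrays without, 0.05 to 0.15. Median changes over both lines were -0.17 for licensing, -0.24 for firing, -0.32 for polymerases, -0.16 for the clamp and lagging strand, -0.17 for the fork and -0.39 for chromatin, and no difference between roles was tested.

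**Figure D4:**
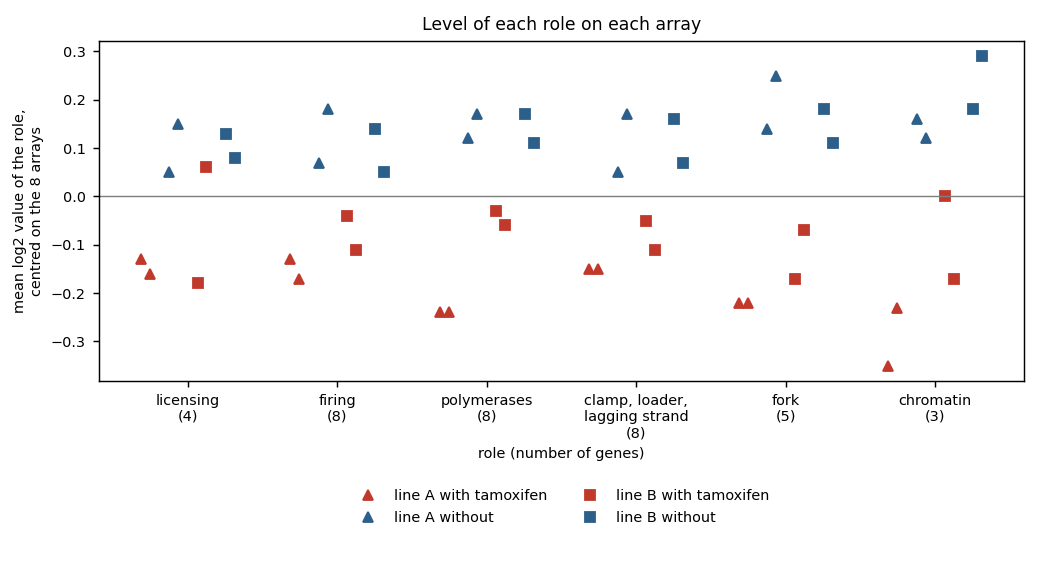
Mean log2 value of the genes of each role on each array, centred on the mean of the 8 arrays; triangles are line A and squares line B, red with and blue without tamoxifen, and the number of genes stands under each role. Blue symbols lie above 0 and red ones at or below 0 in every role, except 1 line B array with tamoxifen in licensing, at 0.06.

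In line A alone, 5 of the 36 genes fell and 0 rose, Pclaf, Ticrr, Wdhd1, Pole and Clspn, by 0.84 (SE 0.09), 0.84 (SE 0.11), 0.79 (SE 0.10), 0.64 (SE 0.09) and 0.73 (SE 0.10), with limma adjusted p-values of 0.012 to 0.024. Over all genes in line A, 0.1% fell and 0.401% rose (0.502% in either direction). At an unadjusted p of 0.05, 20 of the 36 were lower and 0 higher, against 3.11% and 4.99% of all genes. The median of the 36 was -0.27, and in 27 of them both arrays with tamoxifen lay below both without, against 26.2% of all genes; in 1, Gins4, both lay above, against 21.3%. With array weights 9 members passed in line A, and 10 with only line A in the fit. Of all genes 20 fell in line A. Under the alternatives other than leaving out an array 16 to 175 did, most with only line A in the fit. The count of all genes with array weights is not given here, so the 9 members cannot be read as particular to the 36. The line A calls were lost with any single line A array left out, which leaves 1 array in a group. The median of the 36 in line A stayed between -0.30 and -0.27 when each array was left out.

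In line B, 0 of the 36 genes passed in limma, and of all genes 0% fell and 0.0201% rose. The spread was shared with line A, whose arrays lay closer together. The line B intervals and p-values may therefore be too small, and those of line A too large. At an unadjusted p of 0.05, 9 of the 36 were lower and 0 higher, against 2.37% and 2.46% of all genes. The nearest to the threshold was Wdhd1, at -0.65 (SE 0.10, adjusted p = 0.088, 95% interval -0.87 to -0.43). Next came Pclaf at -0.42 (95% interval -0.62 to -0.22) and Ticrr at -0.44 (-0.68 to -0.20). The median of the 36 was -0.19, and 17 had both arrays with tamoxifen below both without, against 12.9% of all genes, while 0 had both above, against 12%.

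The lines gave the same sign for 34 of the 36 genes (94.4%), 33 lower and 1 higher in both, against 59.2% of all genes with the same sign. Timeless and Rfc3 had opposite signs: Timeless differed by 0.02 in line B and -0.25 in line A, and Rfc3 by -0.20 in line B and 0.05 in line A. In 15 of the 36, as in 4.7% of all genes, both arrays with tamoxifen were below both without in each line. The change in line B minus that in line A passed for 0 of the 36 in limma, and for 0% of all genes, with an adjusted p of 1 for each member. At an unadjusted p of 0.05 it was above 0, meaning the smaller fall in line B, for 4 of the 36, Pclaf at 0.43 (95% interval 0.14 to 0.71), Ticrr at 0.40 (0.06 to 0.75), Clspn at 0.37 (0.06 to 0.69) and Pole at 0.30 (0.03 to 0.58), against 1.33% of all genes, and below 0 for 0 of the 36, against 1.5%. For Wdhd1 the difference was 0.14 (-0.17 to 0.45).

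Between the lines, 0 of the 36 genes passed either without or with tamoxifen. Without tamoxifen, the median of line B minus line A was -0.02, the range -0.15 (Pclaf) to 0.23 (Gins2), and in limma 0 were called, where 0.186% of all genes were higher and 0.14% lower in line B (0.326% in either direction). At an unadjusted p of 0.05, 0 of the 36 were higher or lower, against 3.17% and 2.03% of all genes, and 2 were higher and 6 lower without overlap, against 17% and 11.7%. With tamoxifen the median was 0.12, 28 of the 36 were higher in line B, as were 11489 of 19938 genes, and again 0 passed, where 0.181% of all genes were higher and 0.351% lower (0.532% in either direction). Without overlap 15 were higher and 4 lower in line B, against 22.4% and 15.3% of all genes. At an unadjusted p of 0.05, 5 were higher in line B and 0 lower, against 3.5% and 3.22% of all genes: Uhrf1 by 0.42, Pole by 0.35, Clspn by 0.32, Ticrr by 0.31 and Pclaf by 0.27. These contrasts use the same arrays as the tamoxifen effects of the lines.

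Part of the spread in line B ran the same way in both of its groups. Sample 1 minus sample 2 with tamoxifen, set beside sample 2 minus sample 1 without, had the same sign for 24 of the 36 genes (66.7%) and for 61.8% of all genes, with a Pearson r of 0.67 across the 36 genes and 0.53 across all genes, all of which share these 4 arrays. Gins2 differed by 0.77 with and 0.73 without tamoxifen, Pold2 by 0.40 and 0.44, and Pola2 by 0.44 and 0.31. Rfc4 ran the other way, at -0.57 and -0.55, as did Pole2 at -0.40 and -0.48 and Tipin at -0.41 and -0.35. With sample 1 with tamoxifen and sample 2 without left out together, an alternative chosen after seeing the data, 10 of the 36 fell over both lines. With the opposite pair left out 11 did. The share of all genes that fell in these fits is not given here, so the counts cannot be read as particular to the 36. Sample numbers pair nothing, so the order of subtraction is arbitrary. Reversing it in 1 group would turn the sign of r and make same signs opposite ones. The source of the spread in line B was not tested.

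**Figure D5:**
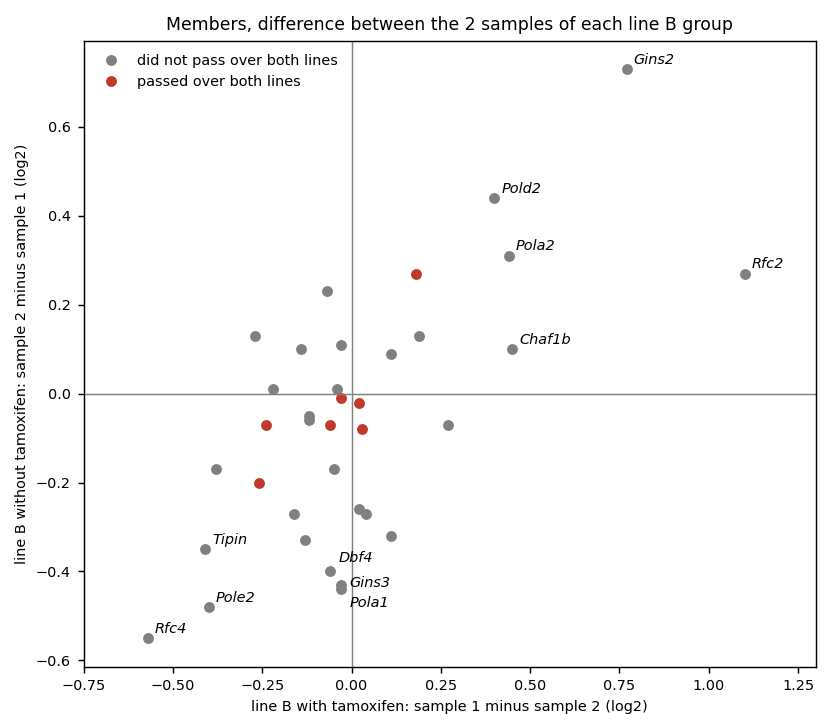
For each of the 36 genes, log2 difference between the 2 line B arrays with tamoxifen (horizontal, sample 1 minus sample 2) against that between the 2 line B arrays without (vertical, sample 2 minus sample 1); red points passed over both lines and labelled genes are those furthest out. Gins2 and Rfc2 lie far to the right and Rfc4 and Pole2 at the lower left.

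Other genes of the pathway were described from lists chosen by name, also with earlier results of these data known. All 6 MCM helicase genes were lower with tamoxifen, with changes from -0.45 to -0.28, and 2 fell, Mcm6 by 0.45 (SE 0.08, limma adjusted p = 0.029) and Mcm4 by 0.35 (SE 0.07, limma adjusted p = 0.038); Mcm3, Mcm7, Mcm5 and Mcm2 had log2 differences of -0.32, -0.30, -0.28 and -0.33 without passing. Among 32 further replication genes, 31 missed the threshold, 0 rose and 1 fell, with a median of -0.12. In sign 25 of them were lower and 7 higher. The origin recognition complex genes Orc5, Orc4, Orc3 and Orc2 were among those higher, at 0.21, 0.20, 0.07 and 0.05, and did not pass. The 1 that fell was Dnmt1, the maintenance methyltransferase that Uhrf1 recruits. Dnmt1 stood at 9.04 and 8.90 with tamoxifen in line A, against 9.47 and 9.34 without, and at 9.25 and 9.11 with tamoxifen in line B, against 9.42 and 9.55 without. Its change was -0.37 (SE 0.07, limma adjusted p = 0.04), and its treatments did not overlap. Top2a, the topoisomerase that untangles sister chromatids, Mtbp, a partner of Ticrr, and Atad5, which unloads PCNA, had log2 differences of -0.41, -0.32 and -0.30 and did not pass.

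Markers of other cell types were read beside these falls. The 10 macrophage and blood markers averaged 6.59 and 6.48 in line A and 7.22 and 7.17 in line B with tamoxifen, against 6.54 and 6.41 in line A and 7.02 and 7.01 in line B without. With tamoxifen 0 of these 10 passed, with a median change of 0.10 and 8 above 0. Between the lines, 10 of 10 with tamoxifen and 9 of 10 without were higher in line B in sign, with medians of 0.64 and 0.37 in the same order. Without overlap they were higher for 10 with and 8 without tamoxifen, against 22.4% and 17% of all genes. At an unadjusted p of 0.05 they were higher for 10 and 6, against 3.5% and 3.17%. After adjustment in limma they were higher for 2 and 1, against 0.181% and 0.186%. Other lists also held genes called between the lines. Without tamoxifen 2 of 10 fibroblast and 1 of 8 endothelial markers were higher in line B. With tamoxifen 1 fibroblast marker was lower and 1 endothelial marker higher. Of the 10 fibroblast markers 2 rose past the threshold with tamoxifen over both lines, Lum by 1.33 and Dcn by 0.88, and 0 fell. Of all genes 0.808% rose. In sign 3 of the 10 were higher and 7 lower, with a median change of -0.02. Among the epithelial and endothelial markers 0 of 10 and 0 of 8 passed. The part of these markers in the falls was not tested.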

How the data were processed

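RNA of 8 fibroblast samples was measured on Affymetrix arrays. Per the series' design text, the authors made RMA values in Affymetrix Expression Console (no version is given in the sources used here), and the deposited table holds log2 values, here between 2.61 and 14.12, which compress changes of dim genes. The number of arrays limits the precision. Of 35556 probe sets, the platform annotation gave 1 gene symbol for 21789, several for 1621 and none for 12146; gene IDs of 21698 matched the RefSeq table, which changed 0 symbols. The probe set with the highest mean stood for a gene, leaving 19938 genes.

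limma 3.58.1 in R 4.3.3 (lmFit, eBayes) was fitted on all genes, with Benjamini-Hochberg adjustment over all of them and a threshold of 0.05. For the change over both lines the model held line and tamoxifen (5 residual degrees of freedom), and for the other contrasts it held the 4 group means (4 residual degrees of freedom). The fits were tested on simulated data. Groups come from the sample titles, and sample numbers are names in accession order and pair nothing. Motifs and figures were made in Python 3.11.15.

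The members, roles and lists were chosen with earlier results of these data known. All 36 members are named; values per array are given for those that passed over both lines and for the 3 of each role with the smallest p, and for up to 4 others per further list; values of Gins2, Gins4, Pcna, Pold2 and Rfc2 per array were added after they were seen. Alternatives were a shift of arrays to 1 median, a repeat of quantile normalization, a filter on the dimmest 30% of genes, a trended and robust eBayes, weighted arrays, averaging or keeping all of a gene's probe sets, other treatments of the line, 1 line alone and leaving out each array.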

Additional observations from a re-analysis of the deposited data

How the results depend on the processing

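Over both lines, 7 of the 36 genes fell, and 5 to 8 did under 8 of the 9 alternatives that kept all arrays. With array weights 17 did. Of all genes 102 fell, and 56 to 380 did under those 9 alternatives, most with array weights. Leaving out each array in turn gave 1 to 8 of the 36 and 13 to 104 of all genes. The low counts of the 36 were all without a line A array. In line A 5 of the 36 genes fell, against 9 with array weights and 10 when only line A was fitted. Of all genes 175 fell when only line A was fitted, against 20 in the main fit. The count of all genes that fell in line A with array weights is not given here. The line A calls were lost with any single line A array left out, which leaves 1 array in a group. With line B PKM2 sample 1 and line B PKM1 sample 2 left out together, chosen after seeing the data, 11 of the 36 fell over both lines. The share of all genes that fell in that fit is not given here. The cause of these shifts was not tested. The median of the 36 stayed between -0.26 and -0.19 over both lines. In line B, for the difference between the lines' effects and between the lines, 0 members passed under every alternative that was run. Of the results for single genes over both lines, 566 kept their side of the threshold, 28 lost a call, 18 gained one and 0 reversed. Wdhd1 kept its call under all 17 alternatives, Pclaf under 15, Ticrr, Pole and Clspn under 13 each, Uhrf1 and Prim1 under 10 each. No paired analysis was possible because the labels number no replicates across groups. With 2 arrays per group, a gene that did not pass is not shown to be stable.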

Other observations

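Polymerases outside the replisome were read beside the replicative ones. Poln shares its probe set with another gene and has no value here. Of the 13 measured repair, translesion and mitochondrial polymerase genes, 1 fell, 0 rose and 12 did not pass, and their median change with tamoxifen was -0.08, with 9 lower in sign. The 1 that fell was Polq, which joins broken ends by short homologies: it stood at 7.36 and 7.30 with tamoxifen in line A, against 7.79 and 7.71 without, and at 7.50 and 7.60 with tamoxifen in line B, against 7.95 and 7.95 without. Its change was -0.41 (SE 0.06, limma adjusted p = 0.011), with no overlap between treatments, and the change was -0.40 in line B and -0.42 in line A. Polg, the mitochondrial polymerase, had a log2 difference of -0.21 (limma adjusted p = 0.29). Polk, a translesion polymerase, and Polb, the base excision repair polymerase, had changes above 0, at 0.27 and 0.25 (limma adjusted p = 0.31 and 0.33), and neither passed. The E2F spellings were found in the promoters of 0 of the 10 genes of this list with an entry, against 4 of 5 MCM genes and 7 of 26 further replication genes.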
